A study of Saccharomyces cerevisiae with 15 samples.

Results

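The 10 genes described here make, desaturate, elongate and activate fatty acids in budding yeast. They were taken by name from the 5703 genes analysed, with earlier results of these data known. They are ACS2 (YLR153C), ACC1 (YNR016C), FAS1 (YKL182W), FAS2 (YPL231W), OLE1 (YGL055W), ELO1 (YJL196C), ELO2 (YCR034W), ELO3 (YLR372W), FAA1 (YOR317W) and FAA4 (YMR246W). The series asked how yeast adjusts translation when glucose is taken away, in strain YWG25, whose labels give the Sigma1278b background and the name WT and list no deletion. Cultures without glucose (-GLU) and with it (+GLU) each gave 3 libraries of ribosome footprints, the short mRNA fragments shielded by a ribosome from RNase I, and 3 libraries of poly(A)-selected RNA. Per the labels, all cells grew at 30 °C in YPD, a rich medium with glucose, to an optical density of 0.7, and the 12 replicated libraries came from cells given 100 µg/ml of cycloheximide, an inhibitor of translation elongation, before centrifugation. Another 3 footprint libraries, 1 for each condition, are described as made with the inhibitor omitted: -GLU with fast harvest by filtration, -GLU not titled fast, and +GLU with fast harvest. The sources used here do not say how long glucose was withheld, nor whether replicates were separate cultures, so p-values measure the spread between these libraries.

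In the cytosol, acetyl-CoA synthetase Acs2 joins acetate to coenzyme A, the carboxylase Acc1 turns acetyl-CoA into malonyl-CoA, and the fatty acid synthase, built from equal numbers of Fas1 and Fas2 chains, strings these units into long-chain acyl-CoA. In the endoplasmic reticulum the desaturase Ole1 introduces the double bond that keeps membranes fluid, and the elongases Elo1, Elo2 and Elo3 lengthen the chains, the longest of which enter sphingolipids. Faa1 and Faa4 couple free fatty acids, above all those taken up from outside, to coenzyme A. Acc1 is inhibited through phosphorylation by Snf1, the kinase that is active when glucose is scarce.

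Values are CPM, counts scaled to a common library total, with TMM factors except in the libraries without cycloheximide. A log2 change is -GLU over +GLU with its standard error (SE). All values are shares of a library, so less of a gene and more of the rest cannot be told apart. Total counts lay between 2391712 and 7921427 in the -GLU footprint libraries, 4159880 and 8680468 in the +GLU footprint libraries, 10591879 and 12480932 in the -GLU RNA libraries, and 2423486 and 12560502 in the +GLU RNA libraries. Both -GLU libraries numbered 3 stood apart for these genes. In RNA, -GLU replicate 3 was below both other -GLU replicates for 8 of the 10 genes and above both for FAA1, against 43.3% of all genes below and 42.1% above. In footprints it was below both for 7 and above both for FAA1, against 46.1% of all genes below and 38.0% above. The median log2 difference of replicate 3 from the mean of the other -GLU replicates was -1.10 in RNA and -1.49 in footprints over the 10 genes, and -0.01 and -0.07 over all genes. In both of these libraries, and in +GLU RNA replicate 1, the counted stretch of each of the 10 genes was 26 nt longer than in the rest. The part of that difference in the results was not tested, and calls that change when it is left out are given both ways.

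The 3 elongase genes fell in RNA and in footprints in the replicated -GLU libraries, all made with cycloheximide. Of the 10 genes, all tested, 4 fell in RNA (ELO1, ELO2, ELO3, FAA4), 0 rose and 6 did not pass the threshold of 0.05 on the adjusted p of edgeR's quasi-likelihood test. Over all 5519 genes tested in RNA, 60.6% were called, 30.4% as higher in -GLU and 30.2% as lower. In footprints 5 fell (ELO1, ELO2, ELO3, ACS2, FAS2) and 0 rose, against 64.8% of 5319 genes called, 33.8% as higher and 31.0% as lower. With -GLU footprint replicate 3 left out, 8 of the 10 fell, against 73.1% of genes called and 34.9% called lower. The median log2 change of the 10 genes was -0.39 in RNA, where the median of all genes was 0.01, and -1.54 in footprints, where it was 0.10. Without -GLU RNA replicate 3 the RNA median of the 10 genes was -0.06 and 3 of them, the elongase genes, fell, against 59.2% of genes called and 29.7% called lower. Scaling by total counts alone moved the median of all genes to 0.15 in RNA and 0.55 in footprints.

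**Figure D1:**
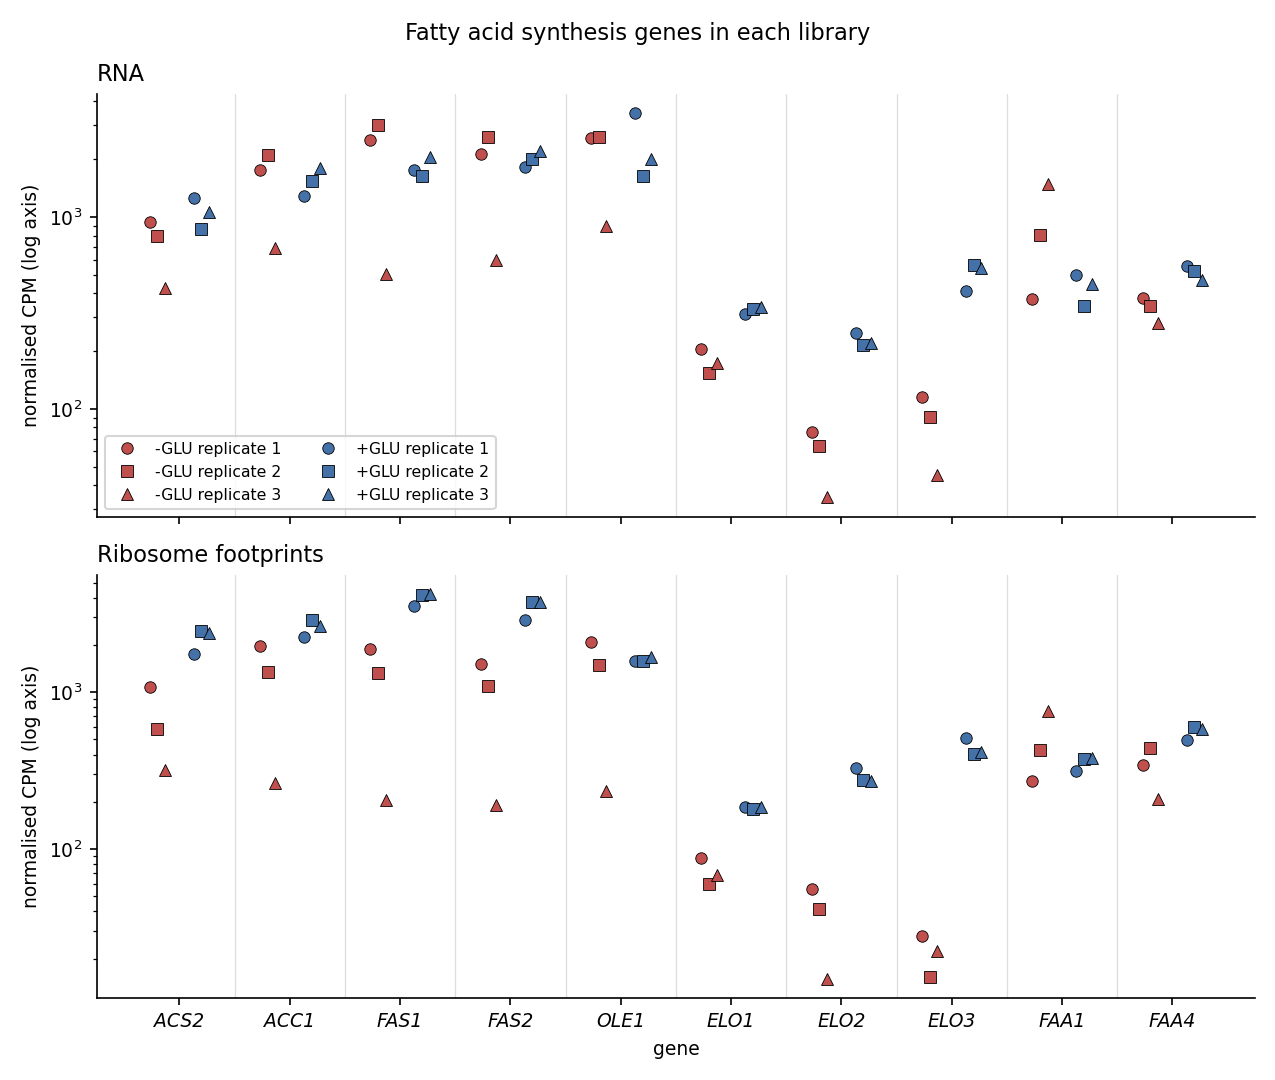
Normalised CPM (log axis) of the 10 fatty acid genes in each -GLU library (red) and +GLU library (blue), RNA above and ribosome footprints below; circles, squares and triangles are replicates 1, 2 and 3. The -GLU points of ELO1, ELO2 and ELO3 lie below all their +GLU points in both panels, and the -GLU triangles of ACC1, FAS1, FAS2 and OLE1 lie far below the other -GLU points.

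ACS2, which supplies cytosolic acetyl-CoA during growth on glucose, fell in footprints, and its RNA change did not pass the test. Its RNA was 942, 798 and 425 CPM in -GLU replicates 1, 2 and 3, against 1253, 862 and 1064 CPM in +GLU. The groups overlapped, and the log2 RNA change was -0.55 ± 0.36 (SE, adjusted p = 0.205). Its footprints were 1078, 586 and 319 CPM in -GLU, against 1739.8, 2443 and 2396 CPM in +GLU, with every -GLU library below every +GLU library. The footprint mean was 3.32-fold lower in -GLU, a log2 change of -1.73 ± 0.46 (SE, adjusted p = 0.0121).

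ACC1, the carboxylase that commits acetyl-CoA to fatty acids, had 1755, 2092 and 688 CPM of RNA in -GLU, against 1281, 1546 and 1789.7 CPM in +GLU. Of the -GLU libraries, replicate 2 lay above the +GLU range, replicate 1 within it and replicate 3 below it, and the log2 RNA change was -0.03 ± 0.44 (SE, adjusted p = 0.965). Footprints of ACC1 were 1963, 1352 and 263 CPM in -GLU, against 2254, 2892 and 2650.5 CPM in +GLU. The footprint groups did not overlap, but replicate 3 spread the -GLU values so widely that the log2 change of -1.12 ± 0.64 did not pass the test (adjusted p = 0.157). Without -GLU footprint replicate 3, the log2 footprint change of ACC1 was -0.65 ± 0.24 and passed (adjusted p = 0.0343). The direction in RNA turned with scaling by total counts, where the log2 change was 0.16, and without -GLU RNA replicate 3, where it was 0.34.

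FAS1 and FAS2 encode the beta and alpha chains of the synthase. FAS1 RNA was 2509, 3014 and 503 CPM in -GLU, against 1748, 1628 and 2048 CPM in +GLU. FAS2 RNA was 2119, 2611 and 599.7 CPM in -GLU, against 1832, 2001 and 2196 CPM in +GLU. For FAS1, -GLU replicates 1 and 2 were above all +GLU libraries, for FAS2 replicate 2 was, and for both genes replicate 3 was below them all. The log2 RNA changes were 0.15 ± 0.58 for FAS1 (SE, adjusted p = 0.837) and -0.18 ± 0.51 for FAS2 (SE, adjusted p = 0.783). Without -GLU RNA replicate 3 they were 0.63 ± 0.32 for FAS1 (SE, adjusted p = 0.121) and 0.25 ± 0.32 for FAS2 (SE, adjusted p = 0.524), a change of sign for FAS2, which also turned under scaling by total counts (0.0074). That of FAS1 was -0.04 without -GLU RNA replicate 1 and -0.26 without replicate 2. Footprints were lower in every -GLU library. FAS1 had 1892, 1325 and 206 CPM of footprints in -GLU, against 3518, 4169 and 4231 CPM in +GLU, a log2 change of -1.80 ± 0.70 (SE, adjusted p = 0.0545). FAS2 had 1513, 1091 and 191 CPM in -GLU, against 2905, 3759.8 and 3779 CPM in +GLU, a log2 change of -1.90 ± 0.67 (SE, adjusted p = 0.0383). The means were 3.48-fold lower in -GLU for FAS1 and 3.74-fold lower for FAS2, so the genes lay on either side of the threshold with nearly equal changes.

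The footprint calls of both synthase genes changed with the libraries and settings used. That of FAS2 was lost without +GLU footprint replicate 1 (adjusted p = 0.0572), replicate 2 (0.0744) or replicate 3 (0.0687), and without -GLU footprint replicate 2 (0.0836), and with scaling by total counts (log2 change -1.49, adjusted p = 0.0666). FAS1 passed with all libraries kept under relative log expression factors (adjusted p = 0.0481), DESeq2 (0.00716) and 1 model over the 12 libraries (0.041), and also without -GLU footprint replicate 1 (0.0351). Without -GLU footprint replicate 3 both passed, at log2 changes of -1.31 ± 0.25 for FAS1 (SE, adjusted p = 0.00108) and -1.42 ± 0.25 for FAS2 (SE, adjusted p = 0.000704). The proportion of FAS1 to FAS2 footprints varied little between the libraries made with cycloheximide. Per length of gene, the ratio of FAS1 to FAS2 footprints was 1.09 ± 0.08 in -GLU and 1.05 ± 0.05 in +GLU (SD, n = 3 each), and the ranges overlapped. It stayed at 0.992 in -GLU footprint replicate 3, where each gene had less than in the other -GLU libraries. In RNA the ratio was 0.974 ± 0.176 in -GLU and 0.828 ± 0.070 in +GLU (SD, n = 3 each), again with overlapping ranges.

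OLE1, the desaturase gene, had the most RNA per length of the 10 genes in both states. Its RNA was 2583, 2610.1 and 902 CPM in -GLU, against 3495, 1639 and 2000.2 CPM in +GLU, with overlap and a log2 change of -0.23 ± 0.50 (SE, adjusted p = 0.718). Footprints were 2097, 1499.8 and 234 CPM in -GLU, against 1569, 1586 and 1671 CPM in +GLU. The 3 +GLU footprint values were close together, while the -GLU values ran well above and far below them. The log2 footprint change was -0.33 ± 0.66 (SE, adjusted p = 0.680), and it was 0.16 ± 0.21 without -GLU footprint replicate 3 (SE, adjusted p = 0.516). No direction can be given for OLE1: scaling by total counts also turned its footprint change to 0.07, and leaving out -GLU RNA replicate 3 turned its RNA change to 0.15. Leaving out +GLU RNA replicate 1 turned the RNA change to 0.16.

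The elongases are known for different chain lengths: Elo1 lengthens medium chains, Elo2 makes very long ones and Elo3 the longest. ELO3 had the lowest footprint change of the 10 genes. Its footprints were 27.9, 15.3 and 22.3 CPM in -GLU, against 507, 402 and 416 CPM in +GLU. The means were 21.9 ± 6.34 CPM in -GLU and 442 ± 56.8 CPM in +GLU (SD, n = 3 each). The groups were far apart and -GLU replicate 3 lay inside its group, and the log2 footprint change was -4.32 ± 0.30 (SE, adjusted p = 3.13e-05). ELO3 RNA was 115, 90.2 and 45.3 CPM in -GLU, against 414, 563 and 541 CPM in +GLU, a mean 6.05-fold lower and a log2 change of -2.60 ± 0.36 (SE, adjusted p = 0.00029). Among all genes tested, 2.52% had a lower footprint change and 5.67% a lower RNA change than ELO3.

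ELO2 fell by less than ELO3 in both assays. ELO2 RNA was 75.6, 63.9 and 34.5 CPM in -GLU, against 248, 214 and 219.7 CPM in +GLU, a log2 change of -1.97 ± 0.29 (SE, adjusted p = 0.000446). Its footprints were 55.8, 41.6 and 14.9 CPM in -GLU, against 328, 276 and 273 CPM in +GLU, a mean 7.73-fold lower and a log2 change of -2.95 ± 0.45 (SE, adjusted p = 0.000895). ELO1 had the least change of the 3. ELO1 RNA was 205, 154 and 174 CPM in -GLU, against 312, 333 and 341 CPM in +GLU, a log2 change of -0.89 ± 0.21 (SE, adjusted p = 0.00542). ELO1 footprints were 87.3, 60.2 and 67.7 CPM in -GLU, against 185, 179 and 185 CPM in +GLU, a log2 change of -1.35 ± 0.20 (SE, adjusted p = 0.00078). In none of these 4 comparisons did the groups overlap. With any 1 library left out the 3 elongase genes passed the test in both assays, at adjusted p of at most 0.0379 in RNA and at most 0.00571 in footprints. With cellulose-selected RNA only, ELO1 RNA did not pass (adjusted p = 0.0833). The differences between the 3 genes were not tested.

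ELO2 and ELO3 were also set against each other. Per length of gene, the ratio of ELO3 to ELO2 footprints was 0.504, 0.370 and 1.51 in -GLU replicates 1, 2 and 3, against 1.55, 1.46 and 1.53 in +GLU. Replicates 1 and 2 were far below the +GLU libraries and replicate 3 was among them. In RNA the ratio was 1.53, 1.42 and 1.32 in -GLU, against 1.68, 2.65 and 2.48 in +GLU, with no overlap.

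FAA1 and FAA4, which encode the acyl-CoA synthetases for long chains, had changes of opposite sign in RNA. FAA1 RNA was 374, 807 and 1481 CPM in -GLU, against 499, 345 and 445 CPM in +GLU. The -GLU values covered a wide range that held most of the +GLU values at its lower end, and the log2 RNA change of 1.05 ± 0.46 did not pass (SE, adjusted p = 0.0737). It was 0.48 ± 0.33 without -GLU RNA replicate 3 (SE, adjusted p = 0.248). It passed without -GLU RNA replicate 1, at 1.42 (adjusted p = 0.0101), and with DESeq2, at 1.03 (adjusted p = 0.0297). FAA1 footprints were 270.2, 426 and 760.2 CPM in -GLU, against 312, 373 and 377 CPM in +GLU, a log2 change of 0.45 ± 0.37 (SE, adjusted p = 0.315). Replicate 3 gave the highest FAA1 value in both assays, and without -GLU footprint replicate 3 the footprint change was -0.03.

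FAA4 RNA was 376, 344 and 279 CPM in -GLU, against 554, 525 and 468 CPM in +GLU, with no overlap and a log2 change of -0.63 ± 0.24 (SE, adjusted p = 0.0431). This call was lost when any 1 of the 6 RNA libraries was left out: at adjusted p of 0.0645, 0.122 and 0.0738 without -GLU replicates 1, 2 and 3, and of 0.0625, 0.0997 and 0.0826 without +GLU replicates 1, 2 and 3. It was also lost with total counts (adjusted p = 0.15), 1 model over the 12 libraries (0.0591) and cellulose-selected RNA only (0.141). FAA4 footprints were 342, 437 and 209 CPM in -GLU, against 498, 601 and 579 CPM in +GLU, with no overlap and a log2 change of -0.76 ± 0.30 (SE, adjusted p = 0.0558). It passed without -GLU footprint replicate 2 (log2 change -1.03, adjusted p = 0.0291) or replicate 3 (-0.53, adjusted p = 0.0308), and with relative log expression factors (0.0457), DESeq2 (0.0188) or 1 model over the 12 libraries (0.0336). Per length, the ratio of FAA1 to FAA4 RNA was 0.986, 2.33 and 5.27 in -GLU replicates 1, 2 and 3, against 0.894, 0.651 and 0.942 in +GLU, with no overlap. The footprint ratio was 0.783, 0.966 and 3.60 in -GLU, against 0.621, 0.615 and 0.646 in +GLU, also without overlap.

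Counting libraries rather than tests, the 3 -GLU libraries all lay below the 3 +GLU libraries for 4 of the 10 genes in RNA, where 33.9% of all genes did so and 68.4% did not overlap in either direction. In footprints they did so for 8 of the 10, all but OLE1 and FAA1, where 35.5% of all genes did so and 72.2% did not overlap in either direction.

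**Figure D2:**
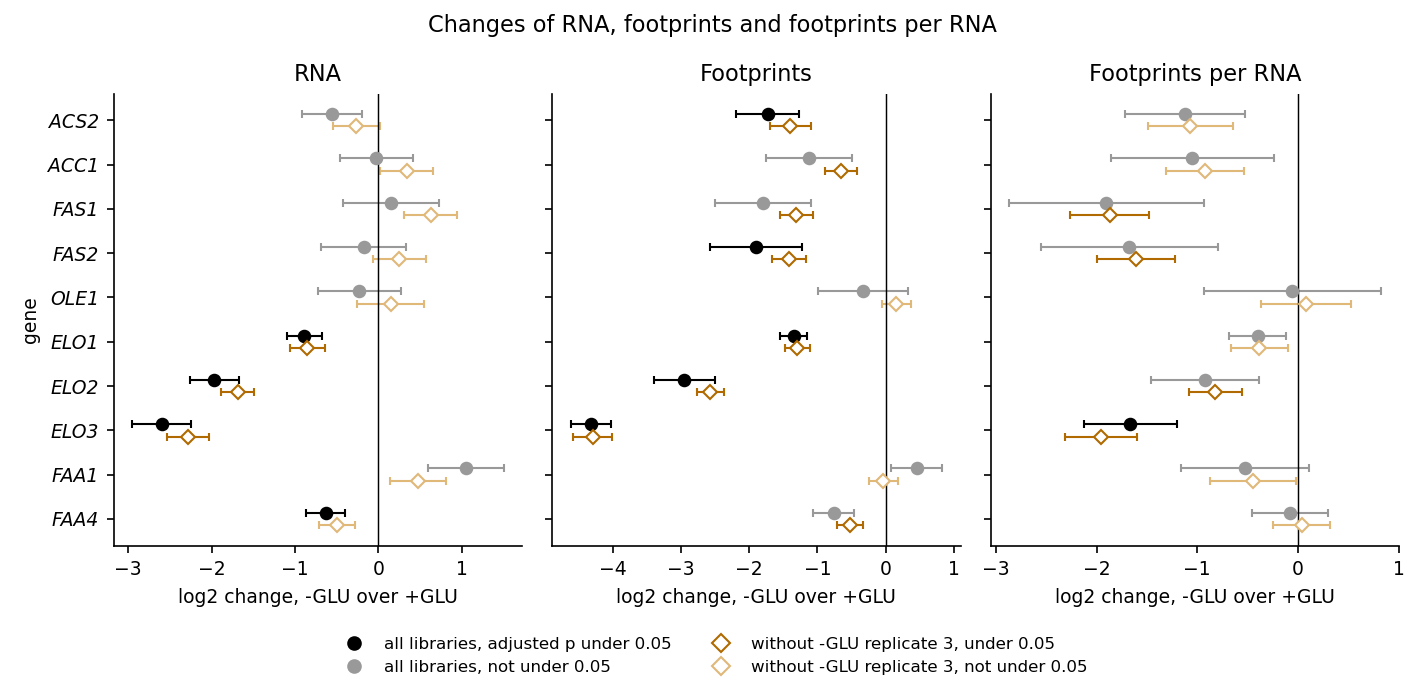
Log2 change of -GLU over +GLU of each of the 10 genes in RNA, in footprints and in efficiency, with bars of 1 SE. Filled circles are the fits with all replicated libraries, black where the adjusted p was under 0.05 and grey where it was not. Open diamonds are the fits without -GLU replicate 3, whether they passed or not. With all replicated libraries, the footprint changes of ACS2, FAS1 and FAS2 lie between -1.73 and -1.90, while their RNA changes lie between -0.55 and 0.15.

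Levels between genes were compared on the authors' RPKM values, reads scaled by gene length and library total. With glucose, footprint density was highest for ACS2 at 923 ± 124 RPKM and OLE1 at 915 ± 34.3 RPKM (SD, n = 3), above 95.7% of all genes each. FAS1 at 555 ± 28.3 RPKM and FAS2 at 528 ± 51.0 RPKM came next (SD, n = 3), followed by ELO3, ACC1, ELO2, FAA4, ELO1 and FAA1, which was the lowest at 146 ± 7.90 RPKM (SD, n = 3). Neighbours in this order whose mean ± SD overlapped were ACS2 with OLE1, FAS1 with FAS2, ELO3 with ACC1, and ELO2 with FAA4. Without glucose the footprint order was OLE1 at 959.8 ± 701 RPKM, ACS2 at 372 ± 205 RPKM and FAA1 at 275 ± 154 RPKM (SD, n = 3), then FAS1, ACC1, FAS2 and FAA4, then ELO1, and last ELO2 at 41.8 ± 22.2 RPKM and ELO3 at 24.9 ± 6.98 RPKM (SD, n = 3). Only the steps from FAA4 to ELO1 and from ELO1 to ELO2 exceeded the mean ± SD of both neighbours. The footprint density of ELO3 was above that of 31.5% of all genes in -GLU and of 91.2% in +GLU.

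Translational efficiency is footprints per RNA, and its change was tested as the interaction of assay and glucose over the 12 replicated libraries. ELO3 was the 1 gene of the 10 that passed, with an efficiency that fell by 1.66 ± 0.46 on the log2 scale (SE, adjusted p = 0.0336). Over all 5509 genes tested 13.7% passed, 9.24% as higher and 4.48% as lower. In number, 509 genes were called higher and 247 lower, a split that moved to 379 and 326 with relative log expression factors and to 769 and 137 with total counts. All 10 efficiency changes were negative under TMM scaling, with a median of -0.99 against 0.13 over all genes, but those of OLE1 (-0.05 ± 0.87, adjusted p = 0.972) and FAA4 (-0.08 ± 0.38, adjusted p = 0.905) turned to 0.17 and 0.15 under scaling by total counts. The log2 efficiency changes of the synthesis genes were -1.12 ± 0.60 for ACS2 (SE, adjusted p = 0.220), -1.05 ± 0.81 for ACC1 (0.399), -1.90 ± 0.96 for FAS1 (0.200) and -1.67 ± 0.88 for FAS2 (0.215). Those of the other genes were -0.92 ± 0.53 for ELO2 (SE, adjusted p = 0.256), -0.40 ± 0.28 for ELO1 (0.349) and -0.53 ± 0.64 for FAA1 (0.606). Of all genes tested, 1.40% had a lower efficiency change than FAS1 and 2.36% a lower one than FAS2.

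The efficiency calls depended on how the libraries numbered 3 were handled. Replicate 3 was low for the synthesis genes in RNA and in footprints alike, and in the -GLU libraries the gene-wise deviations of same-numbered RNA and footprint libraries correlated at 0.38 to 0.60. Those of -GLU footprint replicate 1 and -GLU RNA replicate 2 also correlated, at 0.37, so the pairing of replicates 1 and 2 is an assumption. With the number within each glucose state as a block, 6 of the 10 genes fell in efficiency, against 25.9% of genes called and 11.0% called lower. They were FAS1 (-2.04 ± 0.40, adjusted p = 0.00397), FAS2 (-1.86 ± 0.41, adjusted p = 0.0069), ELO3 (-1.63 ± 0.39, adjusted p = 0.0115), ACC1 (-1.32 ± 0.43, adjusted p = 0.0403), ACS2 (-1.21 ± 0.39, adjusted p = 0.0381) and ELO2 (-1.03 ± 0.28, adjusted p = 0.0189), each as a log2 change with its SE from the same edgeR test. With both -GLU libraries numbered 3 left out instead, 4 fell, against 24.9% of genes called and 10.1% called lower: FAS1 by 1.87 (adjusted p = 0.00464), FAS2 by 1.61 (0.00946), ELO2 by 0.82 (0.0386) and ELO3 by 1.96 (0.00244) on the log2 scale. Both fits were chosen after seeing the data. In the fit without a block, ELO3 lost its call without -GLU footprint replicate 2 (adjusted p = 0.0696), -GLU RNA replicate 2 (0.0517), +GLU footprint replicate 1 (0.0715), 2 (0.0706) or 3 (0.063), or +GLU RNA replicate 3 (0.0682), and with cellulose-selected RNA only (0.0811), and FAS1 passed beside ELO3 without -GLU RNA replicate 3 (adjusted p = 0.045), against 18.7% of genes called and 11.0% called lower.

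As a level within each state, efficiency was set against that of the median gene of the same state. In -GLU, the log2 footprints per RNA of FAS1 were -0.28, higher than in 37.6% of 5509 genes, against 1.83 in +GLU, higher than in 97.6%. The 3 same-numbered pairs of libraries gave 0.28, -0.52 and -0.58 in -GLU and 1.68, 2.06 and 1.75 in +GLU, so even the highest -GLU pair was below the lowest +GLU pair. ACC1 stood at 0.07 in -GLU (above 52.7% of genes) and 1.45 in +GLU (above 93.5%), FAS2 at -0.45 in -GLU (above 30.1%) and 1.48 in +GLU (above 93.8%), and ACS2 at 0.46 in -GLU (above 69.8%) and 1.74 in +GLU (above 96.8%). By these means, all from libraries with cycloheximide, the genes of chain synthesis were near the top of all genes with glucose. Without it they were, ACS2 apart, near or below the middle. The same-numbered -GLU pairs spread widely, at 0.85, 0.03 and -0.67 for ACC1 and 0.20, -0.60 and -0.94 for FAS2. The efficiency changes of ACS2, ACC1, FAS1 and FAS2 did not pass in the fit of all 12 libraries without a block. ELO3 stood at -1.17 in -GLU, above 8.71% of genes, and at 0.50 in +GLU, above 70.7%. FAA4 stood at 0.62 in -GLU (above 75.8% of genes) and 0.81 in +GLU (above 80.3%).

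**Figure D3:**
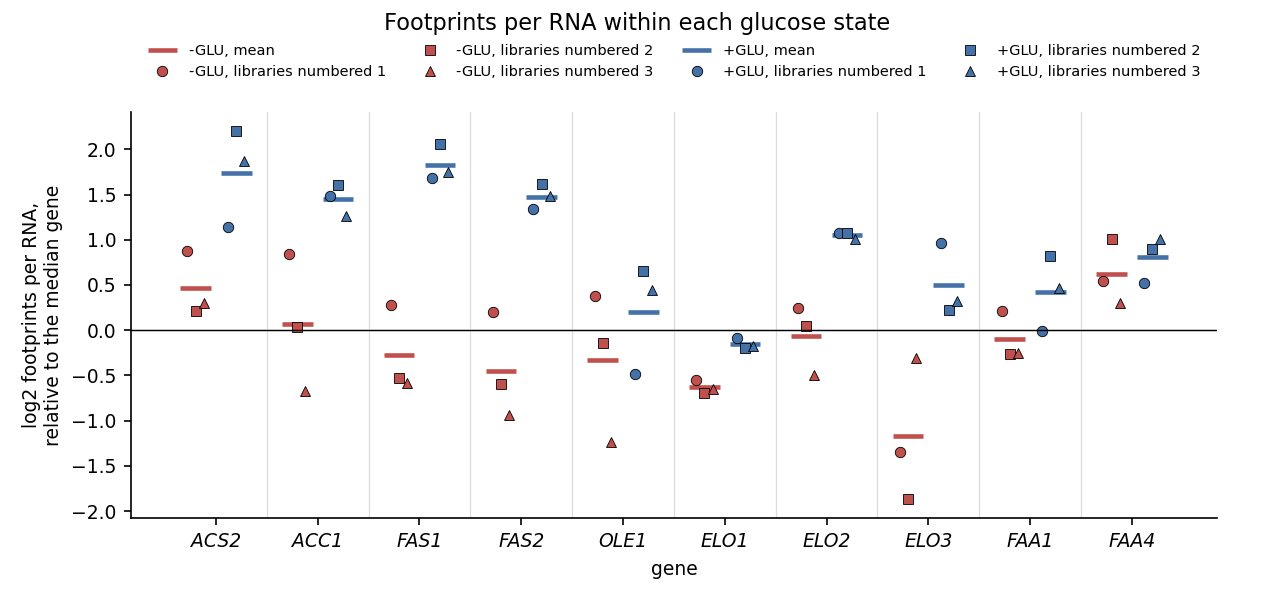
Log2 footprints per RNA of the 10 genes relative to the median gene of the same state, -GLU in red left of +GLU in blue; bars are means over 3 libraries of each assay and symbols are same-numbered pairs of libraries. ACC1, FAS1 and FAS2 have means between 1.45 and 1.83 in +GLU and between -0.45 and 0.07 in -GLU.

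Likeness to other genes was measured as the Euclidean distance between log2 CPM profiles over the 12 replicated libraries, each gene centred on its own mean. Of the 5508 other genes, FAS2 was the nearest to FAS1 at a distance of 0.71, followed by ALD6 at 1.28 and ACC1 at 1.29, where the median gene was at 5.10. ALD6 encodes the cytosolic aldehyde dehydrogenase that makes acetate. For FAS2 the nearest were FAS1, ACC1 at 1.21 and DPH5 at 1.50. ACS2 ranked 13th from FAS1 and 29th from FAS2, and FAA1 3789th and 3784th. For OLE1 the nearest were PST1 at 1.24, IZH1 at 1.30 and PLB2 at 1.31, and the nearest of the fatty acid genes was ACC1 at rank 79.

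The footprint libraries made without cycloheximide number 1 a condition, so their values have no test. Their CPM are counts over the library total, without TMM factors. With fast harvest and no drug, OLE1 had 4043 CPM in -GLU and 949 CPM in +GLU, a ratio of 4.26 (95% exact counting interval 4.20 to 4.33). ACC1 had 5303 CPM in -GLU and 2194 CPM in +GLU, a ratio of 2.42 (2.39 to 2.45). FAS1 and FAS2 were near even, at ratios of 1.17 (1.16 to 1.19) and 1.03 (1.01 to 1.05). With cycloheximide, the TMM-scaled -GLU means of ACC1, FAS1 and FAS2 were 2.18-fold, 3.48-fold and 3.74-fold lower. Scaled by total counts alone, as the libraries without the drug were, their log2 changes with cycloheximide were smaller, at -0.71, -1.39 and -1.49. Without the drug the log2 ratios were 1.27, 0.23 and 0.04. ELO3 was 7.36-fold lower in -GLU without the drug (6.72 to 8.08) and ELO2 3.34-fold lower (3.10 to 3.61), both also low with it. ELO1, whose footprints fell with cycloheximide, was higher in -GLU with fast harvest and no drug, at a ratio of 1.47 (1.38 to 1.58). It had 142 CPM in that -GLU library and 96.5 CPM in +GLU, but 55.2 CPM in the -GLU library not titled fast. ACS2 had a ratio of 0.604 (0.590 to 0.619), FAA1 of 1.56 (1.50 to 1.62) and FAA4 of 1.25 (1.21 to 1.29). Past 2-fold, 2 of the 10 genes were higher in -GLU and 2 lower, where 32.0% of 5375 genes were higher and 19.5% lower, 51.5% in all. The median log2 ratio of the 10 genes was 0.27 and that of all genes 0.32. Intervals cover counting error only, and since harvest and lysis changed along with the drug, these cannot be told apart.

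The preparations were also set side by side in RPKM. In -GLU, ACC1 had 329, 231 and 48.5 RPKM of footprints in the 3 libraries with cycloheximide, against 794 RPKM in the fast-harvest library without it. FAS1 had 346, 247 and 41.3 RPKM with the drug, against 619 RPKM without it, and OLE1 had 1557, 1134 and 188 RPKM with it, against 2680 RPKM without it. All 3 cycloheximide libraries were below the library without the drug for 8 of the 10 genes in -GLU, and for FAA1 and ACS2 they lay on both sides of it. Of 5173 genes, 13.3% had all 3 below it and 45.4% all 3 above it. In +GLU, ACC1 had 307, 362 and 330.0 RPKM with the drug, against 329 RPKM without it. There the 3 cycloheximide libraries lay on both sides of the library without the drug for 5 genes and above it for 5 (ACS2, FAS2, OLE1, ELO1, FAA1), where 17.4% of 5063 genes had all 3 below it and 53.2% all 3 above it.

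The -GLU libraries without the drug also differed from each other. The library not titled fast, the shallowest of the 15 at 1610986 counts, held 19 ELO3 counts, where the fast-harvest library held 484 in 8570783. In CPM, ELO3 was 4.79-fold lower in the library not titled fast (3.03 to 8.02), ELO1 2.57-fold lower (2.07 to 3.23) and ELO2 2.21-fold lower (1.70 to 2.91). The other 7 genes were within 2-fold, from 0.637 for ACC1 to 1.84 for FAA1. Over 5282 genes 21.3% were past 2-fold, 8.54% higher and 12.7% lower.

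**Figure D4:**
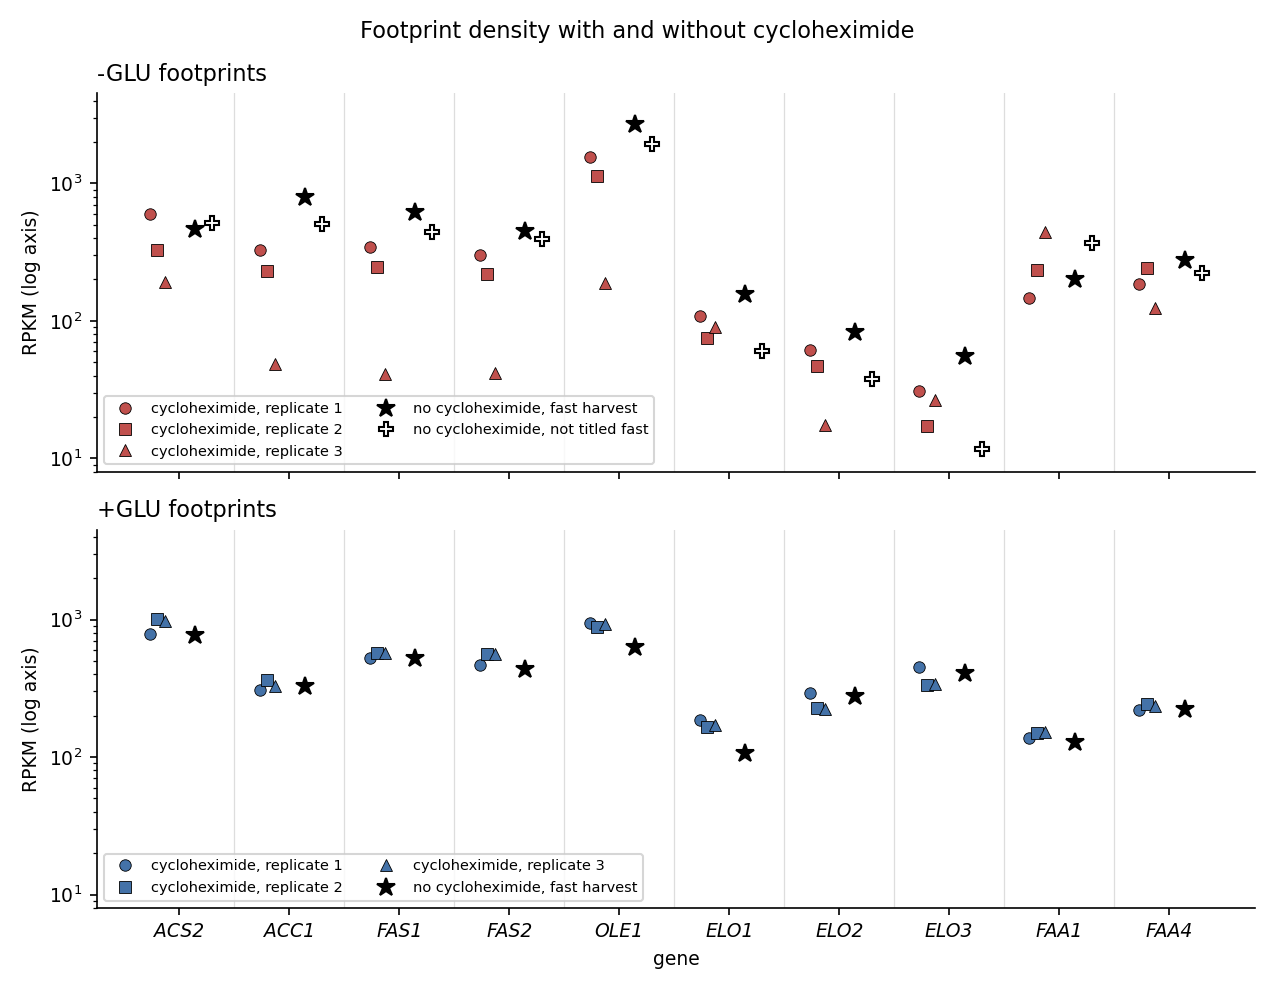
Footprint density (RPKM, log axis) of the 10 genes with cycloheximide (coloured, 3 replicates) and without it (black stars, fast harvest; open crosses, the -GLU library not titled fast), -GLU above and +GLU below. In -GLU the stars of 8 genes lie above all 3 coloured points, ACC1 at 794 RPKM; in +GLU no star does.

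Genes around the pathway were taken from 5 lists of 39 genes. Among 6 partners of elongation and desaturation, 0 rose in RNA and 2 fell, and 0 rose in footprints and 4 fell. Over all genes, 30.4% rose and 30.2% fell in RNA, and 33.8% rose and 31.0% fell in footprints, so the RNA count is near the share of all genes. The median log2 change of the list was -0.66 in RNA and -1.08 in footprints, against 0.01 and 0.10 over all genes. CYB5 encodes cytochrome b5, an electron carrier of the endoplasmic reticulum known from sterol and sphingolipid synthesis, while Ole1 carries a cytochrome b5 domain of its own. CYB5 had 77.5 ± 48.3 CPM of RNA in -GLU and 1002 ± 159 CPM in +GLU (SD, n = 3 each), a log2 change of -3.69 ± 0.56 (SE, adjusted p = 0.000471). Its footprints fell by 3.92 ± 0.31 on the log2 scale (SE, adjusted p = 4.98e-05). IFA38, the ketoreductase of the elongation cycle, fell by 1.10 in RNA (adjusted p = 0.00658) and 1.01 in footprints (adjusted p = 0.0124). Its RNA call was lost with cellulose-selected RNA only (log2 change -0.43, adjusted p = 0.203) and its footprint call with total counts (adjusted p = 0.0827). PHS1 and TSC13, the dehydratase and the last reductase of that cycle, had log2 RNA changes of -0.15 and -0.12 and did not pass in either assay (adjusted p of 0.0753 and 0.0919 in footprints).

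Of 6 genes of activation, import, binding and biotinylation, 3 rose in RNA and 0 fell, and in footprints 2 rose and 3 fell, where 30.4% of all genes rose and 30.2% fell in RNA and 33.8% rose and 31.0% fell in footprints. The rise in 2 of 6 is near the share of all genes. The list's median log2 change was 0.43 in RNA and -0.49 in footprints. ACS1, the acetyl-CoA synthetase used on carbon sources other than glucose, rose in both assays. ACS1 RNA was 4288, 3008 and 3179.6 CPM in -GLU, against 14.3, 17.8 and 17.8 CPM in +GLU, a log2 change of 7.73 ± 0.45 (SE, adjusted p = 6.42e-06). ACS1 footprints were 10412, 7799 and 3457 CPM in -GLU, against 3.17, 4.41 and 4.43 CPM in +GLU, a log2 change of 10.79 ± 0.68 (SE, adjusted p = 2.48e-05), and its efficiency rose by 3.13 ± 0.59 on the log2 scale (SE, adjusted p = 0.00683), which did not pass with cellulose-selected RNA only (adjusted p = 0.0721). BPL1 encodes the ligase that attaches biotin to Acc1. Its footprints fell by 0.99 (adjusted p = 0.00524) and its efficiency by 1.61 (adjusted p = 0.00778) on the log2 scale. Its RNA change of 0.68 passed (adjusted p = 0.0272) but not without -GLU RNA replicate 1 or 2 or +GLU RNA replicate 2 or 3 (adjusted p up to 0.0942), nor with cellulose-selected RNA only (log2 change 0.37, adjusted p = 0.250). FAA3, a further acyl-CoA synthetase, had a log2 footprint change of -1.05 ± 0.22 (SE, adjusted p = 0.00403).

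Mitochondria hold a fatty acid synthesis system of their own, made of separate enzymes, that feeds lipoic acid. Of its 8 listed genes, 4 rose in RNA and 0 fell, and 5 rose in footprints and 1 fell, where 30.4% of all genes rose and 30.2% fell in RNA and 33.8% rose and 31.0% fell in footprints. The list's median log2 change was 0.62 in RNA and 1.12 in footprints. ETR1, its enoyl reductase, had 333 ± 85.5 CPM of footprints in -GLU and 29.3 ± 5.89 CPM in +GLU (SD, n = 3 each), a log2 change of 3.51 ± 0.28 (SE, adjusted p = 5.46e-05), and its RNA rose by 2.73 (adjusted p = 6.61e-05). CEM1, its condensing enzyme, rose by 0.96 in RNA (adjusted p = 0.00344), a call lost with cellulose-selected RNA only (adjusted p = 0.0713). HFA1, the mitochondrial acetyl-CoA carboxylase and relative of ACC1, fell by 0.90 in footprints (adjusted p = 0.00983), and its log2 change was -0.46 with total counts (adjusted p = 0.137). PPT2, which primes the carrier protein, had a log2 efficiency change of 1.25 (adjusted p = 0.0254). It did not pass when any of the 3 -GLU RNA libraries, +GLU RNA replicate 1 or 2, or +GLU footprint replicate 2 or 3 was left out, or with cellulose-selected RNA only (adjusted p up to 0.115).

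Among 8 regulators, 3 rose in RNA and 0 fell, and 2 rose in footprints and 1 fell, where 30.4% of all genes rose and 30.2% fell in RNA and 33.8% rose and 31.0% fell in footprints. The counts of genes that rose are near or below those shares, and the list's median log2 change was 0.56 in RNA and 0.30 in footprints. Neither MGA2 nor SPT23, the activators of OLE1 that are released from the membrane, passed the test in either assay, with log2 RNA changes of 1.02 ± 0.42 (SE, adjusted p = 0.0612) and 0.26 ± 0.24 (SE, adjusted p = 0.357). RNA of UBX2, which anchors the unfoldase Cdc48 in the membrane, rose by 1.45 (adjusted p = 0.000444), and RSP5, the ubiquitin ligase that acts on both activators, had a log2 RNA change of 0.86 (adjusted p = 0.0192), which did not pass without +GLU RNA replicate 2 or 3, or with cellulose-selected RNA only (adjusted p up to 0.267). The efficiency change of UBX2 was -1.01 (adjusted p = 0.046) and did not pass without any 1 of the +GLU footprint replicates, -GLU footprint replicate 2 or 3, +GLU RNA replicate 2 or 3, or -GLU RNA replicate 2, nor with total counts or cellulose-selected RNA only (adjusted p up to 0.157). INO2 and INO4 encode the partners of the activator of phospholipid genes. Footprints of INO4 rose by 1.62 (adjusted p = 0.00584), and those of INO2 had a log2 change of -0.97 (adjusted p = 0.0295), not passing without +GLU footprint replicate 3 (0.0565) or with total counts (0.143). The efficiency change of INO4 was 1.73 (adjusted p = 0.023), lost without +GLU footprint replicate 2 or 3, +GLU RNA replicate 2 or 3, or -GLU RNA replicate 1 or 2, and with cellulose-selected RNA only (adjusted p up to 0.255).

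Of 11 genes listed under glycerolipid synthesis, 9 rose in RNA and 0 fell, and 6 rose and 3 fell in footprints. Of all genes, 30.4% rose and 30.2% fell in RNA, and 33.8% rose and 31.0% fell in footprints. The fall of 3 in footprints is near the share of all genes, and the list's median log2 change was 0.76 in RNA and 1.13 in footprints. INO1, which makes inositol phosphate, had RNA of 1238, 1216 and 101 CPM in -GLU, against 19.5, 19.0 and 13.7 CPM in +GLU, a log2 change of 5.60 ± 0.86 (SE, adjusted p = 0.000516) that did not pass with cellulose-selected RNA only (adjusted p = 0.0776). INO1 footprints were 1433, 750.3 and 35.2 CPM in -GLU, against 4.76, 6.07 and 4.80 CPM in +GLU, a log2 change of 7.14 ± 1.28 (SE, adjusted p = 0.00191), with -GLU replicate 3 again the lowest of its group. LRO1, an acyltransferase of triacylglycerol synthesis, fell in footprints, with a log2 change of -1.66 (adjusted p = 0.00245), and in efficiency, with one of -1.77 (adjusted p = 0.0118, and 0.0658 with cellulose-selected RNA only), while its log2 RNA change was 0.16. SCT1, which acylates glycerol phosphate, had a log2 RNA change of 0.55 (adjusted p = 0.0334), lost without -GLU RNA replicate 1 or 2 or +GLU RNA replicate 2 or 3, with a replicate block, and with cellulose-selected RNA only (adjusted p up to 0.219). SLC1, the next acyltransferase, had a log2 efficiency change of -0.94 (adjusted p = 0.0294), lost without +GLU footprint replicate 2 or 3, -GLU footprint replicate 1 or 2, or +GLU RNA replicate 3, and with total counts or cellulose-selected RNA only (adjusted p up to 0.0878).

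**Figure D5:**
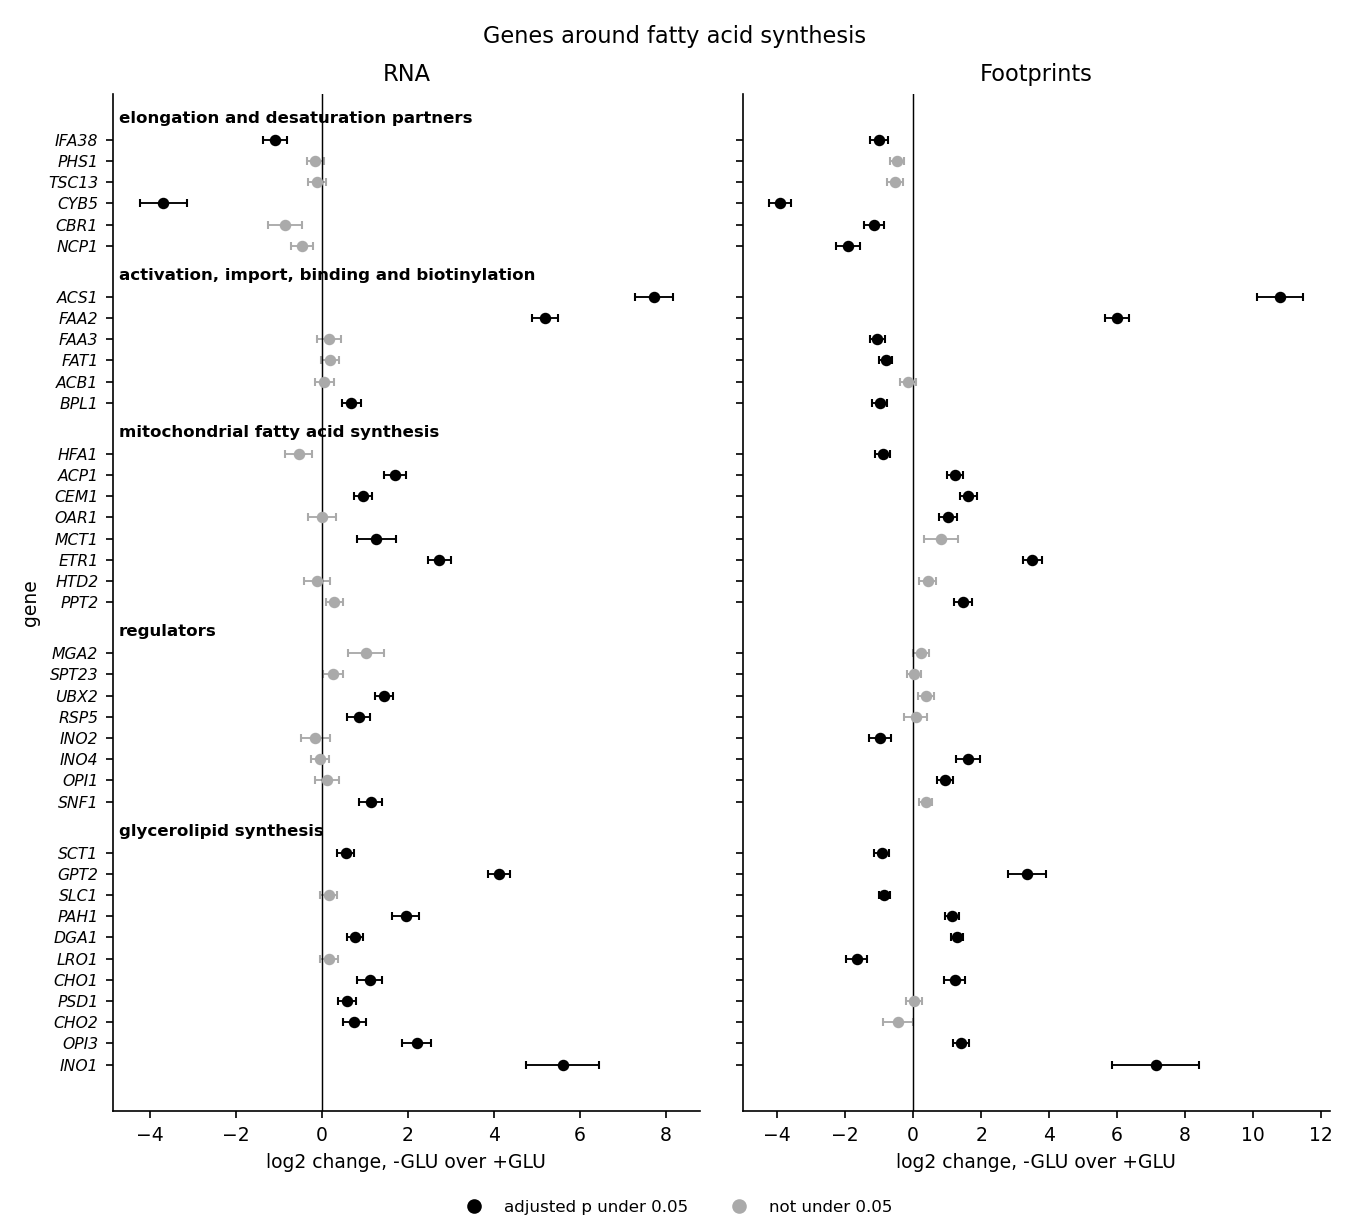
Log2 changes of -GLU over +GLU for the 39 genes around the pathway in RNA and in footprints, by list. ACS1 lies at 7.73 in RNA and 10.79 in footprints, and CYB5 at -3.69 and -3.92.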

How the data were processed

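The authors deposited counts per gene and RPKM values. The deposited columns of -GLU RNA replicates 1 and 2 were taken for expected counts, since 1 entry in each was not a whole number, and that gene was left out everywhere. Per the labels' protocols, all 3 -GLU RNA libraries and +GLU RNA replicate 1 were selected for poly(A) on cellulose, the other +GLU RNA libraries on DynaBeads. The sources used here name no aligner, no genome build and no use of strand. The labels' treatment text names cycloheximide for the libraries described as lacking it, and their descriptions were followed. Comparing deposited counts with RPKM gave the counted length: the coding length of annotation R64 less 24 nt in 12 libraries and plus 2 nt in 3.

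Of 5704 genes, 5703 were analysed. Groups follow the titles. Changes were tested over the whole table with edgeR 4.0.16 in R 4.3.3 (quasi-likelihood F test, TMM, filterByExpr with a minimum count of 10, Benjamini-Hochberg adjustment, threshold 0.05), RNA and footprints over 6 libraries each and efficiency as an interaction over 12. The SE is the size of a change divided by the square root of F. The scripts were tested on simulated data. The 12 pairs of replicates differed by more than sampling noise (chi-square per degree of freedom 8.94 to 373). A floor of 3 counts was 0.0981 to 1.86 CPM over the 15 libraries, and reads carry no molecular identifiers. In the -GLU libraries the replicate number was assumed to pair RNA with footprints. Same-numbered pairs correlated at 0.38 to 0.60 in their deviations. However, -GLU footprint replicate 1 also correlated with -GLU RNA replicate 2 at 0.37, and footprint replicate 2 with RNA replicate 1 at 0.19. The correlations therefore set replicate 3 apart but cannot tell how replicates 1 and 2 pair. In +GLU the same-numbered correlations were 0.07 to 0.13. The block fit within states was added on this assumption, and it pairs the +GLU libraries by number as well. Single libraries without cycloheximide were compared as CPM ratios with 95% exact intervals, among genes with at least 10 counts.

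Alternatives were relative log expression factors, total counts, no filter, DESeq2 1.42.0, a replicate block, 1 model over all libraries, cellulose-selected RNA only, and each library left out. All 10 genes are named in each comparison. From each list of surrounding genes, those with the highest and lowest change among the called ones are named, and PHS1, TSC13, MGA2 and SPT23 were added after their values were seen. The genes and lists were chosen with earlier results of these data known. None of the 10 genes overlaps another coding sequence in R64. Sequences and coordinates are not printed, and the promoter motif search that was planned was not run, because the authors' build is not stated.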

Additional observations from a re-analysis of the deposited data

How the results depend on the processing

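The calls of ELO2 and ELO3 in RNA and in footprints, and those of ELO1 and ACS2 in footprints, held under every alternative fit of the replicated libraries. In the single fast-harvest libraries without cycloheximide, ELO1 footprints were instead higher in -GLU, at a ratio of 1.47. On the log2 scale this was 0.56, where the median of all genes was 0.32. The -GLU library not titled fast had 55.2 CPM of ELO1, below the 96.5 CPM of the +GLU library. With cellulose-selected RNA only, which leaves 1 +GLU library, 1764 genes and 2 of the 10 were called in RNA (ELO1 lost its call, adjusted p = 0.0833), and 145 genes and 0 of the 10 in efficiency. Leaving out 1 library gave 4 to 8 of the 10 genes called in footprints, 0 to 2 in efficiency, 273 to 1034 genes called in efficiency, and a median efficiency change over the 10 genes of -1.51 to -0.69. Without both -GLU libraries numbered 3, 1378 genes and 4 of the 10 were called in efficiency, and with the replicate block within each glucose state 1436 and 6.

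Directions turned with total counts for ACC1 RNA (0.16), FAS2 RNA (0.0074), OLE1 footprints (0.071), OLE1 efficiency (0.17) and FAA4 efficiency (0.15). They turned for ACC1 RNA (0.27) and OLE1 efficiency (0.28) with cellulose-selected RNA only, and for OLE1 (0.081) and FAA4 (0.038) efficiency without both libraries numbered 3. Leaving out 1 library gave RNA changes of -0.33 to 0.34 for ACC1, -0.26 to 0.63 for FAS1, -0.56 to 0.25 for FAS2 and -0.45 to 0.16 for OLE1. It gave footprint changes of -0.89 to 0.16 for OLE1 and -0.032 to 0.74 for FAA1, and efficiency changes of -0.66 to 0.44 for OLE1 and -0.40 to 0.15 for FAA4. The cause was not tested.

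Across glucose states the replicate numbers share only a number (correlations of deviations -0.13 to -0.05 in RNA and 0.06 to 0.09 in footprints). With a replicate block the counts of calls were 3130 genes and 3 of the 10 in RNA, 3293 and 6 in footprints, and 780 and 1 in efficiency. Under that block FAS1 RNA turned to -0.14, FAA4 RNA lost its call (adjusted p = 0.105) and FAS1 footprints passed (adjusted p = 0.0373). Over the 10 genes, 382 single-gene values under alternatives kept their direction and their side of the threshold, 23 lost a call and 23 gained one. The remaining 22 turned in direction, without a call before or after. With 3 libraries a group, efficiency is the least precise of the 3 measures, with SE of 0.28 to 0.96.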
